A study of Mus musculus with 3 samples.

Results

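The interferon gamma and Cxcr3 axis was followed through 8 genes, chosen by symbol and found at 8 of the 31253 genes listed for the skin libraries. They were Ifng (ENSMUSG00000055170), Tbx21 (ENSMUSG00000001444), Il12rb2 (ENSMUSG00000018341), Cxcr3 (ENSMUSG00000050232), Ifngr1 (ENSMUSG00000020009), Ifngr2 (ENSMUSG00000022965), Cxcl9 (ENSMUSG00000029417) and Cxcl10 (ENSMUSG00000034855). Single cells were prepared from skin of mice treated with MC903 (calcipotriol, a vitamin D analogue that raises skin lesions like those of atopic dermatitis), and CD45-positive cells were enriched with beads. The control library came from mice given MC903 and the RHS library from mice given RHS in addition to MC903. Both groups therefore carried the MC903 inflammation, and untreated skin was not analysed here. The labels do not expand RHS and state neither strain nor age, nor how many mice were pooled for a skin library. The protocol also names ethanol-treated mice, but neither skin library is labelled so. A further library, of sympathetic ganglion nuclei, was not used.

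Interferon gamma is secreted mainly by T cells and natural killer (NK) cells. The transcription factor T-bet (Tbx21) and the signal of interleukin 12 through its receptor chain Il12rb2 favour its production. It binds a receptor made of a ligand-binding chain (Ifngr1) and a signalling chain (Ifngr2) and turns on genes such as Cxcl9 and Cxcl10. These chemokines attract cells that carry their receptor, Cxcr3, among them type 1 helper T cells, cytotoxic T cells and NK cells. Cxcl10 is also induced by type I interferons and by inflammatory signals without interferon gamma. MC903 dermatitis itself is known chiefly as a type 2 condition, driven by interleukins 4 and 13.

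Each group had 1 library, hence no test could be made between replicates and no p-value is given. Levels are unique molecular identifiers (UMIs) of a gene per 1000000 UMIs of the class (CPM), summed over the cells of a class in a library. The bracketed ranges are exact 95% intervals, which cover counting error only. They treat UMIs as independent, but many UMIs of 1 gene can come from 1 cell, so for a gene held by few cells they are too narrow. The ratio of RHS over control is therefore given, where it matters, also without the cell with most UMIs in each library and as a ratio of the shares of cells with a UMI. A value more than 1.5-fold apart was taken as a difference worth counting. The filters kept 12577 control and 12953 RHS cells with 53563940 and 51553807 UMIs, medians of 3233 and 3101 UMIs a cell and of 4.75% and 4.68% mitochondrial UMIs. The libraries shared 5 cell barcodes. Clustering without the 8 genes and without the listed interferon genes gave 36 clusters, of which 27 were assigned to 22 classes by marker genes and 9 were left unnamed. A class name stands for cells like that type, as judged from RNA of its markers. CD8 T cells, for example, held Cd8a at 1498 CPM in control and 1360 CPM in RHS against 15.5 CPM in other cells, and macrophages held C1qb at 2781 and 2806 CPM against 226 CPM. NK cells held Ncr1 at 67.4 and 50 CPM against 0.0481 CPM in other cells, and Langerhans cells held Cd207 at 3324 and 3253 CPM against 52.6 CPM. Keratinocytes, endothelial cells, fibroblasts and melanocytes were present in spite of the CD45 selection.

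The chemokine genes Cxcl9 and Cxcl10 lie near each other on chromosome 5. Their promoters are shown to set the one beside the other. The ratios of the 2 genes differed between classes, and whether the promoters bear on this was not tested. Promoter entries of RefSeq (GRCm38.p6, a different build from the GRCm39 of the submitters' processing notes) were matched for 8 of 8 genes, and the 250 bases before each start site were searched on both strands. The search covered the gamma-activated sequence (GAS, TTCNNNGAA, known from promoters that interferon gamma turns on), the core of the interferon-stimulated response element (ISRE, GAAANNGAAA, bound by the complex that type I interferon activates and by interferon regulatory factors) and the NF-kappaB consensus. Capitals mark matches, read 5′ to 3′ on the gene's strand, and the start sites lie 20.8 kb apart.
Cxcl10, chr5:92348890-92349139, minus strand: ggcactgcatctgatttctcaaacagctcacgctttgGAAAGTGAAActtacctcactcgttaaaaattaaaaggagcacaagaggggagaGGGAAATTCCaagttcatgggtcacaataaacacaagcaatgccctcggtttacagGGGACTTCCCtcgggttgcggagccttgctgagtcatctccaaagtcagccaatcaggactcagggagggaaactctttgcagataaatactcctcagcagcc
Cxcl9, chr5:92328080-92328329, minus strand: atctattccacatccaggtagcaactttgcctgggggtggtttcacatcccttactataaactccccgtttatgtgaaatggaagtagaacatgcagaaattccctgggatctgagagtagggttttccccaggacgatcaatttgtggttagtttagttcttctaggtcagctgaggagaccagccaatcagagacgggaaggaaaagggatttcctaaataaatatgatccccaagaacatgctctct
The Cxcl10 window held 1 ISRE core, beginning 213 bases before the start, and 2 NF-kappaB matches, beginning 159 and 103 bases before it, with no overlap between them. No match to these 3 motifs was found in the Cxcl9 window. Elements with other letters or outside the 250 bases were not searched for, so Cxcl9 may hold interferon elements that this search misses. Of 32851 mouse promoters of this length, 2.98% held the ISRE core, 3.9% the NF-kappaB consensus and 7.02% the GAS letters. Among the other 6 genes, Ifng (chromosome 10) and Il12rb2 (chromosome 6) each held 1 GAS match and Ifngr2 (chromosome 16) held 1 NF-kappaB match. Tbx21 (chromosome 11), Cxcr3 (chromosome X) and Ifngr1 (chromosome 10) held none in this window.

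Ifng RNA was rare and was held almost only by lymphocytes. The control library had 369 Ifng UMIs in 93 cells and the RHS library 154 UMIs in 116 cells. Lymphocyte clusters held 94.6% of the cells with an Ifng UMI in control and 94% in RHS. Most of these cells had a single UMI, 70 of 93 and 93 of 116 cells. The control total rested on few cells: 1 conventional CD4 T cell held 187 UMIs, the next cell of the class 28, and the top 10 cells 72.6% of the library's Ifng UMIs. In RHS the highest cell held 11 UMIs and the top 10 cells 22.7%.

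Over all kept cells the Ifng level was 6.89 CPM (6.2 to 7.63) in control and 2.99 CPM (2.53 to 3.5) in RHS, a ratio of 0.434 (0.357 to 0.525). Without the highest cell of each library the ratio was 0.816 (0.651 to 1.02), and the share of cells with an Ifng UMI was 0.739% in control and 0.896% in RHS, a ratio of 1.21. Much of the lower total thus rested on 1 cell, and the share of cells went the other way. Within the lymphocyte clusters the ratio without the highest cells was still 0.733 (0.581 to 0.922). With all cells kept and cluster shares of UMIs held at those of control, the ratio over all cells was 0.255. With levels held at those of control and shares at those of RHS it was 1.29.

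**Figure D1:**
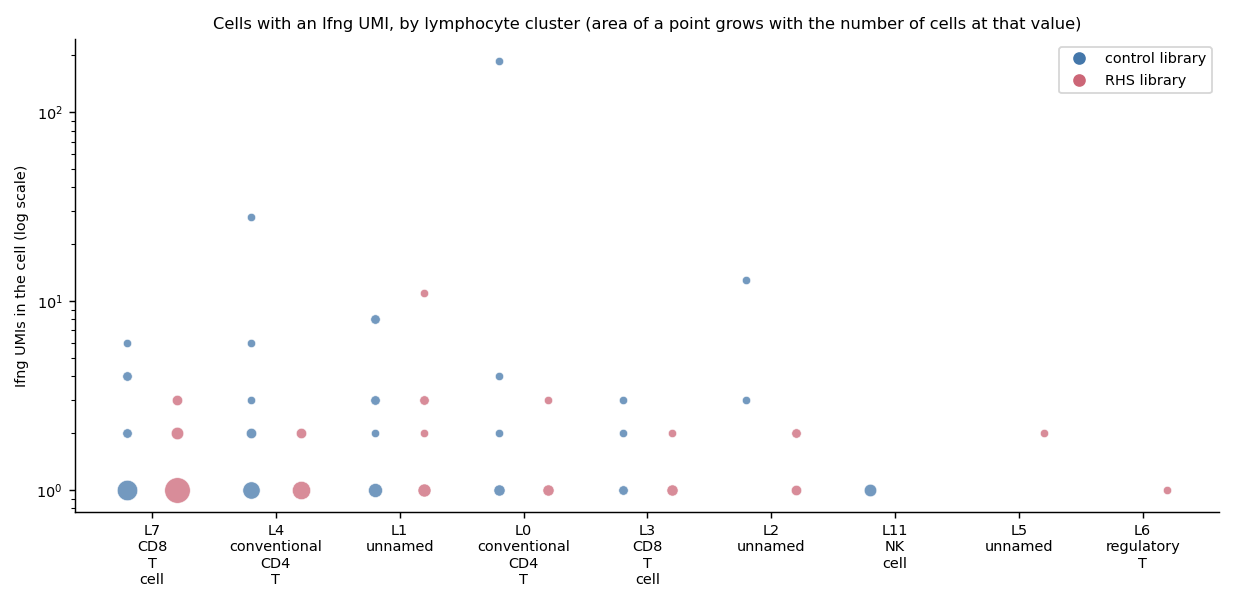
Each point shows lymphocytes with a given number of Ifng UMIs (vertical axis, log scale) in a cluster (horizontal axis, with its class) of the control (blue) or RHS (red) library, and a larger point stands for more cells. In most clusters of both libraries the cells sit at 1 UMI, and the cell with 187 UMIs stands alone in control cluster L0.

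CD8 T cells were the class with most Ifng-positive cells. Their level was 50.2 CPM (37.5 to 65.8; 52 UMIs in 36 of 416 cells) in control and 28.2 CPM (22.2 to 35.3; 76 UMIs in 63 of 1275 cells) in RHS. The ratio was 0.562 (0.389 to 0.815), with intervals that do not overlap, and 0.608 without the highest cell of each library. The share of CD8 T cells with an Ifng UMI was 8.65% (6.13 to 11.8) in control, at a median of 2342 UMIs a cell, and 4.94% (3.82 to 6.28) in RHS, at 2036 UMIs. In macrophages, which are not known as a main source of the gene, 0 of 743 cells (which allows up to 0.495%) and 0.0646% of cells had one, at medians of 5367 and 5160 UMIs. After thinning each cell to 1000 UMIs, which left out 12 control and 38 RHS cells, the CD8 shares were 4.46% and 2.99%, and the interval of their ratio of 0.671 (0.373 to 1.25) included 1. This class held 52 of the 369 Ifng UMIs of the control library, of which 187 were in 1 CD4 T cell, and 76 of the 154 of the RHS library. The main CD8 cluster, marked by Gzmk and Gzma (genes of cytotoxic granules), was at 50.5 and 28.9 CPM.

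In conventional CD4 T cells the Ifng level was 146 CPM in control (257 UMIs in 30 of 754 cells) and 19.7 CPM in RHS (33 UMIs in 28 of 846 cells). The ratio of 0.135 (0.0912 to 0.195) became 0.451 without the highest cell of each library, and the shares of cells were 3.98% (2.7 to 5.63) and 3.31% (2.21 to 4.75). The cell with 187 UMIs belonged to the CD4 cluster L0 (high in Gata3, the master regulator of type 2 helper cells). The other CD4 cluster, L4, was marked by Cxcr3 and Plac8 and held most of the Ifng-positive CD4 cells, 23 of 279 in control and 23 of 436 in RHS, at 108 and 34.2 CPM. NK cells had 6 Ifng UMIs in 209 control cells and 0 in 191 RHS cells, the latter allowing up to 7.37 CPM. Gamma-delta T cells and type 2 innate lymphoid cells had 0 Ifng UMIs in both libraries, and regulatory T cells had 1, in RHS. A cluster of 307 dividing lymphocytes that stayed unnamed (L1, with Cd8a, Gzma and Mki67) was at 54.2 CPM in control and 39.4 CPM in RHS.

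Tbx21 was highest in NK cells, at 101 CPM (77.7 to 129) in control and 73.9 CPM (52.1 to 102) in RHS. CD8 T cells followed at 69.5 CPM (54.4 to 87.5) and 47.5 CPM (39.6 to 56.4), a ratio of 0.683 (0.508 to 0.925), and conventional CD4 T cells stood at 27.2 and 19.1 CPM (ratio 0.703, 0.435 to 1.12). NK and CD8 T cells did not differ beyond their intervals in control. The ratio was below 1 in each of these 3 classes, and only the interval of CD8 T cells excluded 1, at a ratio just inside the 1.5-fold limit. The CD8 difference was present in cluster L7 (74.1 against 47.4 CPM) and not in the smaller Ccr7 cluster L3 (41.2 against 47.6 CPM, from 6 and 13 UMIs). Over all kept cells Tbx21 was at 4.67 CPM in control and 5.22 CPM in RHS. With the RHS levels weighted by the control library's cluster shares of UMIs the ratio was 0.786 in place of 1.12. The RHS library held a larger share of CD8 T cells.

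Il12rb2, the chain that makes the interleukin 12 receptor competent to signal, was high in CD8 T cells at 368 CPM (332 to 406) in control and 417 CPM (393 to 442) in RHS. NK cells held 369 CPM (323 to 420) and 310 CPM (263 to 363), and conventional CD4 T cells 190 CPM (171 to 212) and 246 CPM (222 to 271). The ratio was 1.13 (1.01 to 1.28) in CD8 T cells, 0.839 (0.68 to 1.03) in NK cells and 1.29 (1.11 to 1.49) in conventional CD4 T cells, all within 1.5-fold. The CD4 ratio combined 0.825 in L0, at 121 and 99.6 CPM, with 1.23 in L4, at 342 and 421 CPM, and L4 made up 279 of 754 control and 436 of 846 RHS cells. In CD4 T cells the ratio was 0.886 at a clustering resolution of 2.0. Regulatory T cells held 3.95 and 5.86 CPM, so the gene set the CD4 classes apart. Outside the lymphocytes, migratory dendritic cells held 76.2 CPM (65 to 88.8) and 89.7 CPM (74.5 to 107), and 24.6% and 25.8% of them had a UMI. A small unnamed cluster of 62 Trdc-rich lymphocytes (L13, 22 and 40 cells) had the highest level, 1127 CPM in control and 716 CPM in RHS. In the monocyte-derived cells marked by Ear2 and Retnla, the level was 1.81 CPM in control (9 UMIs) and 5.84 CPM in RHS (46 UMIs), a ratio of 3.22 (1.56 to 7.48). In macrophages the ratio was 1.05 (0.491 to 2.38). Il2rb stood at 1.84 (1.27 to 2.72), Stat4 at 1.67 (1.08 to 2.66) and Runx3 at 0.94 in the Ear2 and Retnla cells. CD8 T cells numbered 416 in control and 1275 in RHS. Whether their free RNA or undetected doublets add to such low levels was not tested.

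Cells with an Ifng UMI carried Il12rb2 more often than other lymphocytes, but not within CD8 T cells. Of 197 lymphocytes with an Ifng UMI, 51.3% (44.1 to 58.4) had an Il12rb2 UMI, against 25.6% (24.5 to 26.7) of the other 6404, at medians of 2201 and 2024 UMIs. Thinned to 1000 UMIs the shares were 32.7% and 16%. For Tbx21 the shares were 14.7% and 6.01%, thinned 5.61% (2.09 to 11.8) and 2.56%. For Cxcr3 they were 17.8% and 10.8%, thinned 6.54% (2.67 to 13) and 5.86%, which did not differ beyond counting error. Within CD8 T cells the Il12rb2 share was 51.5% in both. Within conventional CD4 T cells it was 55.2% (41.5 to 68.3) with an Ifng UMI and 26.1% (24 to 28.4) without. Most of these Ifng-positive CD4 cells, 46 of 58, were in L4, and within L4 the shares were 50% (34.9 to 65.1) and 42.3% (38.5 to 46.1). Within L0 they were 75% (42.8 to 94.5) of 12 cells and 13.7% (11.5 to 16.2) of 873. Thinned to 1000 UMIs, the L0 shares were 20% (0.505 to 71.6) of 5 cells and 8.15% (6.39 to 10.2). These shares pool the 2 libraries and describe cells of the same libraries, so they carry no test.

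Cxcr3, the receptor for Cxcl9 and Cxcl10, did not differ beyond counting error in CD8 T cells, at 128 CPM (107 to 152) in control and 126 CPM (113 to 140) in RHS. Within the class, the main cluster L7 held 128 and 135 CPM, whereas the Ccr7 cluster L3 held 131 CPM (19 UMIs) and 47.6 CPM (13 UMIs), a ratio of 0.365 (0.165 to 0.778). The CD4 cluster L4 held 126 CPM (98.4 to 159) and 137 CPM (112 to 166), in the range of CD8 T cells, whereas the Gata3-rich CD4 cluster L0 held 14.9 and 14.2 CPM. Regulatory T cells stood at 29.1 and 27.5 CPM and NK cells at 25.7 and 28 CPM, and these 2 classes could not be ordered. Cxcr3 was found in 25.2% (21.1 to 29.7) of control and 21.3% (19.1 to 23.7) of RHS CD8 T cells, against 0 of 1199 (up to 0.307%) and 0.206% of keratinocytes at medians of 6385 and 5104 UMIs. Over all kept cells the level was 6.91 CPM (6.22 to 7.65) in control and 12.7 CPM (11.8 to 13.8) in RHS, a ratio of 1.84 (1.62 to 2.1). With cluster shares of UMIs held at those of the control library the ratio was 1.15, and with levels held at those of control and shares at those of RHS it was 1.69. The excess of Cxcr3 in the RHS library thus went largely with cluster shares, among them 1275 CD8 T cells in place of 416. The level in CD8 T cells was not higher (ratio 0.982, 0.801 to 1.21). In conventional CD4 T cells the class ratio was 1.4 (1.05 to 1.87), where L4 had 279 control and 436 RHS cells. For Il12rb2 the ratio over all cells of 1.57 (1.47 to 1.68) was 1.07 at control shares. Low Cxcr3 levels were also seen in cDC1 cells (type 1 conventional dendritic cells) at 8.22 and 5.63 CPM and in macrophages at 1.23 CPM (5 UMIs) and 3.34 CPM (27 UMIs).

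**Figure D2:**
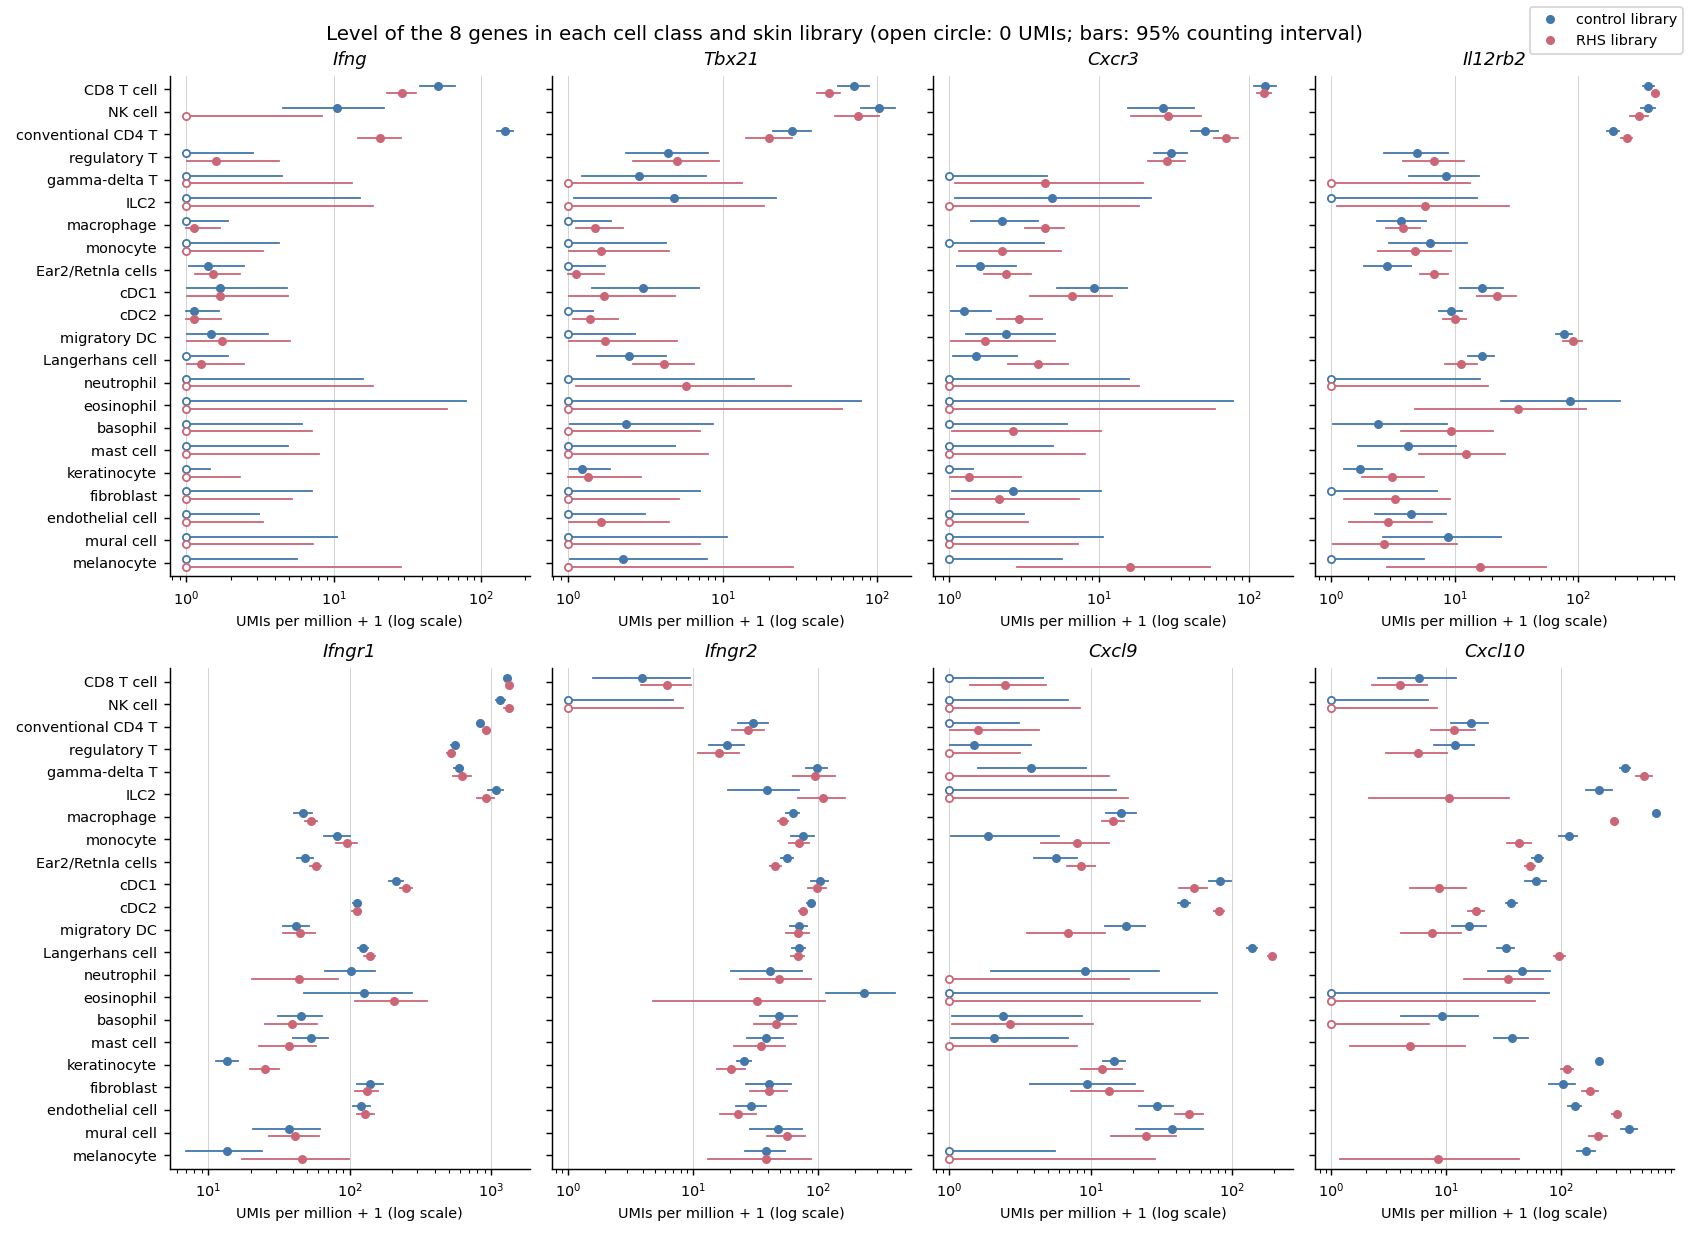
Each panel gives 1 gene, each row a cell class and each point the level in UMIs per 1000000 plus 1 (log scale) of the control (blue) or RHS (red) library, with the 95% counting interval; open circles are classes with 0 UMIs. Ifng, Tbx21 and Cxcr3 are high in the lymphocyte rows at the top, Ifngr2 is near 0 in CD8 T and NK cells, and Cxcl10 is spread over myeloid, stromal and gamma-delta T rows.

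The 2 receptor chains were spread in unlike ways. Ifngr1 was highest in CD8 T cells, at 1292 CPM (1224 to 1363) in control and 1343 CPM (1300 to 1388) in RHS, and in NK cells, at 1157 and 1327 CPM. Type 2 innate lymphoid cells held 1074 and 916 CPM, conventional CD4 T cells 836 and 924 CPM, gamma-delta T cells 587 and 625 CPM and regulatory T cells 551 and 519 CPM. Among myeloid cells cDC1 cells were highest, at 213 and 250 CPM, and macrophages stood at 46.1 and 52.7 CPM. Keratinocytes were low, at 12.6 CPM (10.3 to 15.3) in control and 24.3 CPM (18.8 to 30.7) in RHS.

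Ifngr2 was lowest in the 2 classes with the most Ifngr1. NK cells held 0 Ifngr2 UMIs in both libraries, which allows up to 5.92 and 7.37 CPM, and CD8 T cells had 3 UMIs in control and 14 in RHS (2.89 and 5.19 CPM). Among classes of at least 100 cells, the levels were high in both libraries in cDC1 cells, at 103 CPM (87 to 121) and 97.8 CPM (82.2 to 116), gamma-delta T cells, at 97.6 and 94 CPM, and cDC2 cells (type 2 conventional dendritic cells), at 87.3 and 75.5 CPM. Monocytes held 75.5 and 70.2 CPM, Langerhans cells 69.7 and 68 CPM and macrophages 62.2 and 51.9 CPM. Among CD4 T cells the Ifng-rich cluster L4 had 21.6 CPM (12 UMIs) in control and 3.95 CPM (3 UMIs) in RHS, and the Gata3-rich cluster L0 33.1 and 46 CPM. Among the named classes the signalling chain was therefore at its lowest in the 2 cytotoxic ones. CD4 cluster L4 was as low as CD8 T cells in RHS. Over both libraries L4 held 1169 CPM of Ifngr1 and 11.4 CPM of Ifngr2. A UMI of Ifngr2 was found in 0.721% and 1.1% of CD8 T cells and in 38% and 36.2% of cDC1 cells, at medians of 2342, 2036, 5133 and 4611 UMIs. Thinned to 1000 UMIs the shares were 0.248%, 0.485%, 8.85% and 6.69%. Across 57 pairs of a cluster or class and a library, which share libraries and depth, Pearson's r of log2(CPM + 10) was -0.13 for the 2 chains, -0.49 for Ifngr2 with Cxcr3 and 0.70 for Ifngr1 with Cxcr3.

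**Figure D3:**
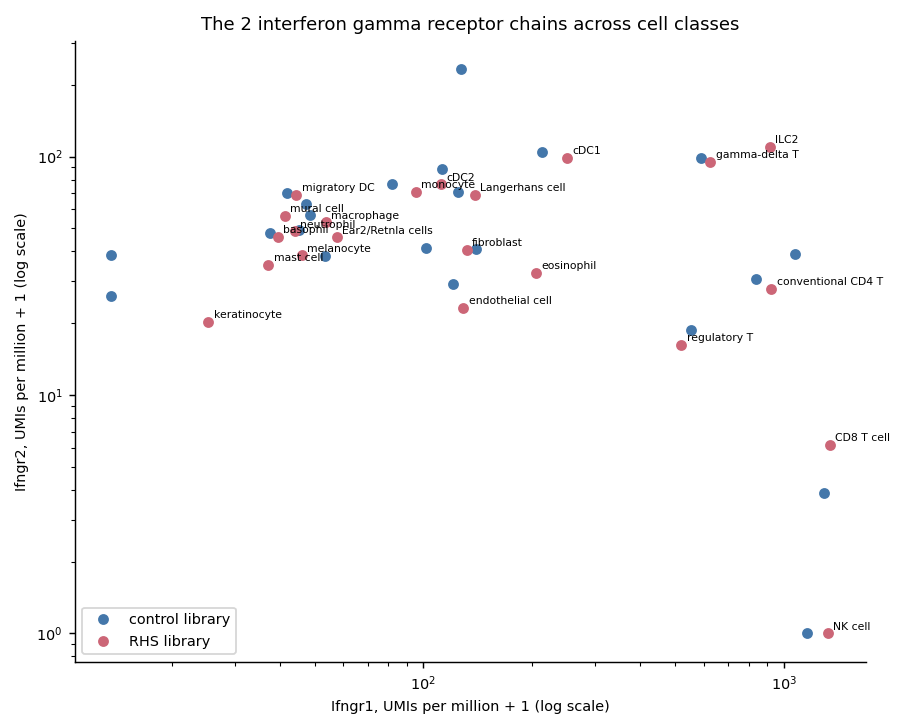
Each point is a cell class in the control (blue) or RHS (red) library, with Ifngr1 on the horizontal and Ifngr2 on the vertical axis, both in UMIs per 1000000 plus 1 on log scales; labels stand at the RHS points. CD8 T and NK cells lie at the lower right, at over 1000 for Ifngr1 and under 10 for Ifngr2, and gamma-delta T cells and type 2 innate lymphoid cells hold both chains.

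Between the libraries the receptor chains differed little. For Ifngr1 the ratio in named classes with more than 100 UMIs in each library lay between 0.853 in type 2 innate lymphoid cells and 1.19 in the Ear2 and Retnla cells. Keratinocytes had a ratio of 1.92 (1.4 to 2.63), 1.82 without the highest cells, from 106 and 68 UMIs. These levels were the lowest of any class large enough to estimate free RNA, and were taken as the free-RNA level in the correction for it, so they cannot be told apart from background. The 2 keratinocyte clusters gave 2.43 (1.05 to 5.03) and 1.62 (1.11 to 2.36), the first from 535 control and 62 RHS cells of the hair-follicle cluster. Neutrophils had 25 and 9 UMIs, a ratio of 0.423 (0.174 to 0.937). For Ifngr2 the ratio was 0.835 (0.713 to 0.98) in macrophages, 0.805 (0.686 to 0.945) in the Ear2 and Retnla cells and 0.865 (0.775 to 0.966) in cDC2 cells, which became 1.28 when each library was clustered on its own. In type 2 innate lymphoid cells it was 2.86 (1.31 to 6.73), from 10 and 23 UMIs, of which 1 RHS cell held 10, and 1.78 without the highest cells.

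Cxcl9 came mainly from dendritic cells of the Langerhans and conventional kinds and was concentrated in few cells. Langerhans cells, the dendritic cells of the epidermis, held 138 CPM (126 to 150) in control and 192 CPM (178 to 206) in RHS, from 53 of 574 and 56 of 578 cells, and the top 10 cells held 62.8% and 56% of the UMIs. The ratio was 1.39 (1.24 to 1.56), and 1.51 without the highest cell of each library. The share of cells with a UMI was 9.23% (6.99 to 11.9) and 9.69% (7.4 to 12.4), at medians of 6489.5 and 6273.5 UMIs. In CD8 T cells, where little Cxcl9 is looked for, 0 of 416 (up to 0.883%) and 0.314% of cells had one. cDC2 cells held 45 CPM (40.6 to 49.9) and 80.2 CPM (74.1 to 86.7), a ratio of 1.78 (1.56 to 2.03). That ratio went with 56 of 1422 and 67 of 1454 positive cells (ratio of shares 1.17), and it was 0.78 (0.617 to 0.984) when cells needed 500 genes and were clustered again, and reached 5.97 under another clustering, so its direction depended on which cells formed the class. cDC1 cells held 81.6 and 52.8 CPM, a ratio of 0.647 (0.478 to 0.871), from 26 and 13 positive cells. Endothelial cells held 28.3 CPM (21 to 37.5) and 48.8 CPM (38.5 to 61), a ratio of 1.72 (1.19 to 2.52), and macrophages 15.5 and 13.4 CPM. An unnamed cluster with Cfd, Igkc and Igha among its leading genes (C16) held 262 and 101 CPM in 12 and 3 cells. Over all kept cells Cxcl9 stood at 27.8 CPM in control and 35.5 CPM in RHS (ratio 1.28, 1.19 to 1.37), and the ratio of the shares of cells was 0.982.

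In control, macrophages held the most Cxcl10 per 1000000 UMIs among the named classes, and they held less in RHS. There gamma-delta T cells stood above them at 524 CPM, or 301 against 272 CPM without the highest cell of either class. Endothelial cells, at 304 CPM in RHS, also stood above the 285 CPM of macrophages, but at 254 CPM without their highest cell. Over all kept cells Cxcl10 stood at 137 CPM in control and 100 CPM in RHS, a ratio of 0.732 (0.706 to 0.758). The macrophage level was 668 CPM (643 to 694, 2708 UMIs in 253 of 743 cells) in control and 285 CPM (273 to 296, 2302 UMIs in 341 of 1548 cells) in RHS. The ratio was 0.426 (0.403 to 0.45), and 0.441 without the highest cell of each library. The share of macrophages with a Cxcl10 UMI was 34.1% (30.6 to 37.6) and 22% (20 to 24.2), at medians of 5367 and 5160 UMIs, and 17.7% and 11.1% after thinning to 1000 UMIs. In NK cells the counts were 0 of 209 and 0 of 191, which allow up to 1.75% and 1.91%. Both the share of positive macrophages and the UMIs per positive cell were thus lower in RHS. The ratio lay between 0.41 and 0.51 under the 9 alternatives of filters, scaling, clustering and free-RNA correction. The last of these could not change it, since the Cxcl10 level taken as free RNA was 0 in both libraries.

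Monocytes went the same way, at 115 CPM (95.6 to 136) and 42.4 CPM (32.8 to 53.8), a ratio of 0.37 (0.271 to 0.5), with 34 of 274 and 31 of 380 positive cells. cDC1 cells held 59.6 and 7.74 CPM (0.13, 0.0625 to 0.244). cDC2 cells held 35.9 and 17.3 CPM (0.482, 0.39 to 0.592), a ratio that was 1.06 with each library clustered on its own. The Ear2 and Retnla cells differed less, at 61.9 and 52.4 CPM (0.847, 0.729 to 0.985). Among skin cells, keratinocytes held 214 and 112 CPM (0.521, 0.461 to 0.588). Their hair-follicle cluster (C13) held 307 and 188 CPM, with 220 of 535 and 19 of 62 cells positive. The other cluster (C15, 664 and 424 cells) held 115 and 101 CPM (0.879, 0.75 to 1.03), so the class ratio includes a smaller share of hair-follicle cells in RHS. Mural cells held 391 and 210 CPM (0.538, 0.421 to 0.686), but 20 of 121 and 36 of 209 were positive, a ratio of shares of 1.04. In melanocytes 130 UMIs in control stood against 1 in RHS (0.046, 0.00116 to 0.261), from 162 and 53 cells, and the ratio was 1 with at most 10% mitochondrial UMIs.

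Other classes had a higher Cxcl10 level in RHS. Endothelial cells held 130 CPM (113 to 148) and 304 CPM (277 to 332), a ratio of 2.34 (2 to 2.76), while 18.2% and 19.1% were positive, at medians of 3127 and 2536 UMIs. Thinned to 1000 UMIs these shares were 8.26% and 12.2%. Langerhans cells held 31.9 CPM (26.6 to 37.9) and 95.2 CPM (85.6 to 106), a ratio of 2.99 (2.43 to 3.69). There 35 of 574 and 32 of 578 cells were positive and 1 RHS cell held 150 of 361 UMIs; without the highest cell of each library the ratio was 2.63. Fibroblasts held 102 and 178 CPM (1.75, 1.29 to 2.39), with a ratio of shares of 0.862. Gamma-delta T cells were the main source among lymphocytes, at 360 CPM (325 to 398; 32 of 578 cells) and 524 CPM (445 to 613; 16 of 182 cells), and the ratio of 1.45 was 1.07 without the highest cells and 1.59 as a ratio of shares. In these gamma-delta T cells, which were high in Il17a, the summed macrophage markers stood at 63.9 and 76.9 CPM in cells with a Cxcl10 UMI, at 52.8 and 92 CPM in those without, and at 10269 and 10812 CPM in macrophages. Of the 8 macrophage markers, 5 in control and 7 in RHS were at 0 in the Cxcl10-positive gamma-delta T cells. These were 32 and 16 cells of a class with medians of 1789 and 1591.5 UMIs a cell. At that depth most markers had to be at 0, so this count tells little. Only macrophage markers are given here, and the source of this Cxcl10 was not tested. In type 2 innate lymphoid cells 52 of 56 control UMIs came from 1 cell. The unnamed cluster C16 held the most Cxcl10 of all, 1258 CPM in 44 of 168 control cells and 958 CPM in 29 of 155 RHS cells.

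**Figure D4:**
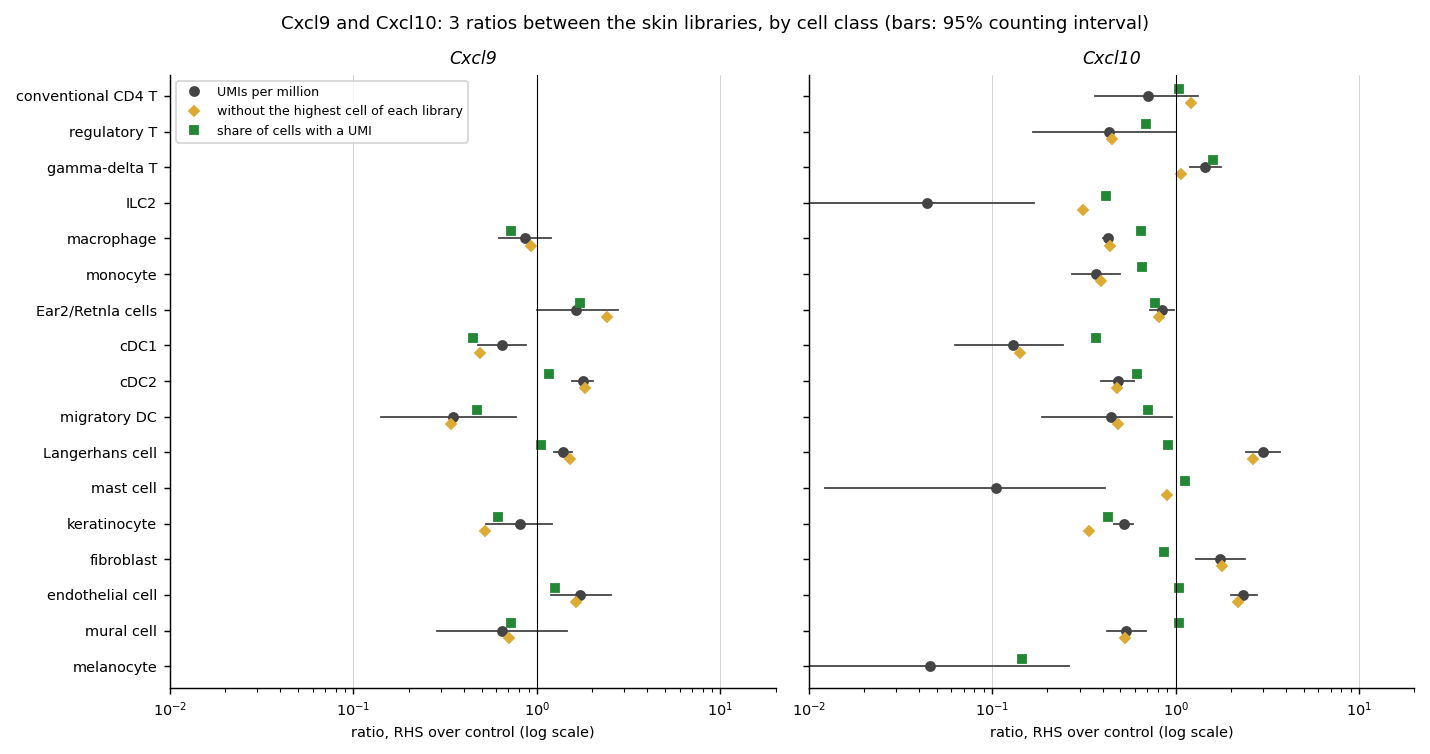
For Cxcl9 (left) and Cxcl10 (right), each row is a cell class with at least 20 UMIs of either gene, and the points give the ratio of RHS over control on a log scale for UMIs per 1000000 (circle, with the 95% counting interval), for the same without the highest cell of each library (diamond) and for the share of cells with a UMI (square). The 3 marks lie left of 1 for Cxcl10 in macrophages, monocytes, cDC1 and cDC2 cells, while in Langerhans and endothelial cells the circle lies right of 1 and the square near it.

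Lists of genes tied to both kinds of interferon were set beside the members. The first held 32 genes known to be induced by interferon gamma (guanylate-binding proteins, immunity-related GTPases, the immunoproteasome, antigen transporters, Irf1, Irf8 and others), 31 of them listed in the files. The second held 15 genes of the type I interferon-type response, 13 of them listed. It included the receptor genes Ifnar1 and Ifnar2 and the interferon gene Ifnb1, so its counts and medians are not of induced genes alone. Genes with at least 20 UMIs in a class were counted, and the shares of all such genes past 1.5-fold are given as background. In macrophages 8.51% of 10301 genes were higher and 7.45% lower in RHS. Of 26 measured interferon gamma-inducible genes 1 was higher and 3 were lower (median log2 ratio -0.30, against 0.05 for all genes), whereas of 13 type I-type genes 0 were higher and 11 lower (median -0.89). The lowest of the first list were Gbp5, a guanylate-binding protein (0.376, 0.219 to 0.636), and Gbp4 (0.582, 0.366 to 0.929), and the highest were Ciita, the regulator of MHC class II genes (1.77, 0.983 to 3.38), and Tap2, an antigen transporter subunit (1.17, 0.882 to 1.56), next to Tgtp2 at 1.17 (0.422 to 3.71). Of the second list Oas1a was lowest (0.257, 0.205 to 0.319), followed by Ifnb1, the gene of interferon beta (0.27, 0.235 to 0.31; 579 and 312 UMIs in 113 and 103 cells). The interferon receptor genes Ifnar1 (0.981) and Ifnar2 (1.01) were the highest. Among the members in macrophages, of 6 measured 1 was higher (Cxcr3) and 1 lower (Cxcl10), so few that the share says little beside the background.

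In monocytes 8.9% of 6952 genes were higher and 10.8% lower. Of 19 interferon gamma-inducible genes 0 were higher and 9 lower (median -0.56), and of 11 type I-type genes 0 were higher and 9 lower (median -2.49, against -0.00 for all genes). Nos2, the inducible nitric oxide synthase, had 35 UMIs in 7 control cells and 0 in RHS, at least 16.4-fold lower with RHS set at 3 counts. Igtp, an immunity-related GTPase, was next at 0.214 (0.0892 to 0.461). The highest of that list were Tap2 (1.46, 0.824 to 2.68) and the transcription factor gene Irf1 (1.18, 0.822 to 1.71). Rsad2, the gene of viperin, was lowest of the type I-type list at 0.0783 (0.0533 to 0.112), then Ifit3 (0.107, 0.0203 to 0.36, from 20 and 3 UMIs), and Ifnar2 (1.21) and Ifnar1 (1.13) were highest. Of the 3 members measured in monocytes 1, Cxcl10, was lower.

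In Langerhans cells more genes of the first list were higher than lower, and none of the second list was higher. There 5.55% of 9730 genes were higher and 8.89% lower. Of 25 interferon gamma-inducible genes 5 were higher and 1 lower (median 0.11, all genes 0.00), and of 12 type I-type genes 0 were higher and 8 lower (median -1.05). The 5 were Gbp5 (4.21, 1.53 to 14.3), Iigp1 (3.47, 1.67 to 7.89), Igtp (2.29, 1.26 to 4.33), Gbp7 (1.87, 1.18 to 3) and Irf1 (1.72, 1.31 to 2.27), and Psmb10 was lower (0.511, 0.378 to 0.685). Gbp7 had a UMI in 30 control and 45 RHS cells and Irf1 in 59 and 79, whereas Iigp1 had one in 4 and 10 cells. Il12b, which encodes the interleukin 12 subunit p40, stood at 9 and 46 UMIs (5.37, 2.6 to 12.5), but in 4 control and 3 RHS cells, of which 1 held 25 UMIs. Of the type I-type list Ifit1 (0.342, 0.211 to 0.538) and Oas2 (0.35, 0.0996 to 1.01) were lowest. Of the 5 members measured in Langerhans cells Cxcl10 was higher and Il12rb2 lower (0.661, 0.431 to 1).

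In cDC2 cells 6.7% of 10615 genes were higher and 6.71% lower. Of 26 interferon gamma-inducible genes 3 were higher (Batf2 2.71, Gbp4 1.54 and Iigp1 1.52) and 0 lower (median 0.16, all genes 0.04), with Ciita (0.736) and Psmb8 (0.754) the lowest. Of 11 type I-type genes 0 were higher and 5 lower (median -0.50), led by Oas1a (0.317, 0.236 to 0.422) and Irf7 (0.337, 0.201 to 0.547). Both cDC2 counts depended on which cells formed the class: with doublets kept, 2 interferon gamma-inducible genes were higher and 3 lower, and 4 type I-type genes were higher and 2 lower. In CD8 T cells 7.61% of 8435 genes were higher and 9.71% lower. There, of 21 interferon gamma-inducible genes 0 were higher and 2 lower (median -0.02, as for all genes), namely Socs1, a feedback inhibitor of the receptor (0.549, 0.33 to 0.924), and Psmb8, an immunoproteasome subunit (0.639, 0.567 to 0.722). Gbp3 (1.43) and Irf8 (1.39) were the highest. Of 9 type I-type genes in CD8 T cells 4 were lower, among them Irf7 (0.403) and Ifit3 (0.523), and of 5 members Ifng alone was lower. In NK cells, with 8.75% of 6162 genes higher and 10.9% lower, 1 of 19 interferon gamma-inducible genes was higher (Nlrc5 1.66, 0.737 to 3.85) and 2 were lower (Gbp3 0.498, 0.158 to 1.36, and Gbp2 0.578, 0.275 to 1.15), each with an interval that included 1, and Gbp4 stood at 1.47. In conventional CD4 T cells, with 6.96% of 8391 genes higher and 8.54% lower, 1 of 21 was higher and 1 lower, and of 7 members Ifng alone was lower.

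**Figure D5:**
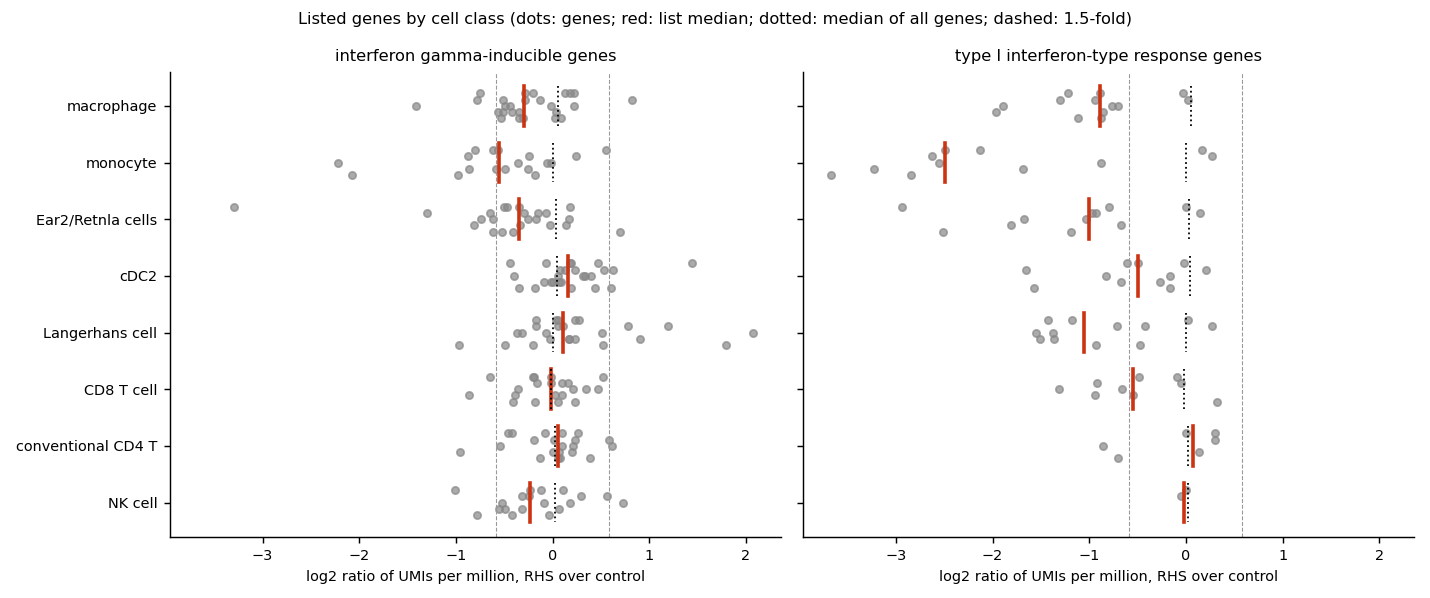
Each dot is a gene of the interferon gamma-inducible list (left) or the type I interferon-type list (right) with at least 20 UMIs in the class, placed by its log2 ratio of RHS over control; red bars are list medians, dotted bars medians of all genes and dashed lines 1.5-fold, and genes with 0 UMIs in a library are left out. The right-hand medians lie at -0.89 in macrophages and -2.49 in monocytes, and the left-hand ones at -0.30 and -0.56.

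Genes that drive Ifng transcription or carry its signal were counted in the same classes. Of 15 drivers (interleukin 12, 18, 15 and 27 components, Stat4, Runx3, Eomes, Hlx and others), 0 of 8 measured in CD8 T cells passed 1.5-fold, where Stat4 stood at 1.03 (0.923 to 1.16), Il18r1 at 1.12, Eomes at 0.873 and Runx3 at 0.873. In NK cells 1 of 7 did, Eomes at 1.78 (0.985 to 3.27), with Runx3 at 1.36, Il18r1 at 0.809 and Il18rap at 1. In macrophages 3 of 9 were lower, Il15 (0.573, 0.417 to 0.788), Il27 (0.651, 0.35 to 1.23) and Hlx (0.658, 0.445 to 0.978), and 1 was higher, Il27ra (2.15, 0.924 to 5.79). In monocytes 2 of 7 were higher, Il2rb (2.06, 0.934 to 4.99) and Stat4 (1.72, 0.851 to 3.7). There 2 were lower, Il15 (0.508, 0.202 to 1.23) and Runx3 (0.654, 0.514 to 0.831), and only the Runx3 interval excluded 1. In cDC2 cells 2 of 10 were lower (Hlx 0.637, Il15 0.64) and 0 higher, with Il18r1 and Il2rb at 1.44. Of the listed genes of receptor signalling, such as Jak1, Socs1 and Ptpn2, 0 passed 1.5-fold in macrophages, cDC2 cells and NK cells and 1 did in CD8 T cells (Socs1). In monocytes 1 was higher, Socs3 (1.72, 1.35 to 2.2), and 2 were lower, among them Socs1 (0.548, 0.215 to 1.35). Of the other chemokine genes of type 1 immunity, Ccl5, which attracts T cells and monocytes, was lower in macrophages (0.559, 0.539 to 0.58) and monocytes (0.158, 0.125 to 0.198). It stood at 1.36 (1.32 to 1.4) in CD8 T cells, 1.25 (1.08 to 1.45) in NK cells, 1.38 in cDC2 cells and 3.47 (3.18 to 3.8) in conventional CD4 T cells. Classes with little Ccl5 in control were higher too: mast cells (36.1, 5 and 101 UMIs), fibroblasts (14.6, 2 and 43 UMIs) and gamma-delta T cells (5.05). The Ear2 and Retnla cells stood at 0.839. CD8 T cells held 5571 and 7570 CPM and numbered 416 and 1275, and CD4 cluster L4 numbered 279 and 436. Whether free RNA or cluster shares bear on these ratios was not tested. Cxcr6, a receptor of tissue-resident T cells, stood at 1.75 (1.14 to 2.7) in cDC2 cells, 1.16 in macrophages, 1.04 in CD8 T cells and 0.766 in NK cells, and Cxcl16 at 0.622 (0.435 to 0.886) in monocytes, 1.12 in cDC2 cells and 1.09 in macrophages.

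For each member the genes most alike across clusters were listed by Pearson's r of log2(CPM + 10) over the same 57 points, among 11399 genes with at least 200 UMIs. Ifng was closest to Fasl (0.86), St8sia1 (0.83) and Themis (0.83), Tbx21 to Fasl (0.94), Klrc2 (0.94) and Klrc1 (0.93), and Il12rb2 to Fasl (0.88), Tbx21 (0.86) and Klrc2 (0.85). Cxcr3 was closest to Gimap7 (0.95), Sh2d1a (0.94) and Ms4a4b (0.92), and Ifngr1 to Ptpn22 (0.91), Il2rb (0.90) and Sh2d2a (0.90). These 5 members thus had lymphocyte genes nearest to them. The other 3 had lower values: Ifngr2 with Dot1l (0.65) and Kdm6b (0.65), Cxcl9 with H2-Ob (0.78), Gatm (0.77) and Ttc9 (0.77), and Cxcl10 with Il1r1 (0.64), Selenop (0.61) and Ipo4 (0.61). Cxcl9 and Cxcl10 were related to each other at 0.44.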

How the data were processed

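Skin single cells of 2 groups (control and RHS, 1 library each) were captured in BD Rhapsody microwells, per the labels' protocols. The authors deposited raw UMI counts per gene and barcode; R 3.6.0, Seurat 5.1.0 and Cell Ranger are named without a role in the submitters' processing notes, with the build GRCm39. What called cells among the skin barcodes: not given in the sources used here. Barcodes with fewer than 200 genes (54 control, 92 RHS), over 20% mitochondrial UMIs (202, 179) or called as doublets by Scrublet at an expected 6% (146, 115) were removed from 12979 and 13339. Undetected doublets may remain in the classes. Scanpy 1.11.5 with 2000 variable genes, 30 components, 15 neighbours and Leiden resolution 1.0 was used (Python 3.11.15, numpy 2.4.6, scipy 1.17.1, igraph 0.11.9), and lymphocytes were clustered again. The 8 members and listed genes were left out of the clustering. Clusters were named from at least 3 markers present.

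Summed counts of each class are given per library as CPM with exact Poisson intervals, ratios with exact conditional intervals and shares with Clopper-Pearson intervals, all at 95%. Ratios needed 50 cells in each library and 20 UMIs in total, and the calculation was checked on simulated counts. Named from each list were the 2 highest and 2 lowest genes in macrophages, monocytes, cDC2, CD8 T and NK cells, and any gene at least 2-fold either way. Other genes named from the lists, among them those in Langerhans cells between 1.5-fold and 2-fold, were chosen after their values were seen. For likeness the 3 genes with the highest r are named, leaving out ribosomal, mitochondrial, predicted and antigen receptor genes. The members and lists were chosen with earlier results of these data known. Cxcl11, Mx1 and Mx2 are not in the gene table used. Some genes named by these rules are not reported here.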

Additional observations from a re-analysis of the deposited data

Results flagged for a closer look

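For 3 of the 8 genes, cell classes of the same 2 libraries stood on opposite sides of 1 in the ratio of RHS over control, past 1.5-fold and with intervals that excluded 1, both with and without the cell holding most UMIs of the gene in each library. The difference between classes was not tested, since each group had 1 library. For Ifngr1 the ratio was 1.92 in keratinocytes and 0.423 in neutrophils (1.82 and 0.378 without the highest cells). The keratinocyte levels, 12.6 and 24.3 CPM, were taken as free RNA in each library because they were the lowest. The correction could thus not place them above background, and they cannot be told apart from it. For Cxcl9 it was 1.78 in cDC2 cells and 1.72 in endothelial cells, against 0.647 in cDC1 cells. For Cxcl10 it was 2.99 in Langerhans cells, 2.34 in endothelial cells and 1.75 in fibroblasts. The Cxcl10 ratio was 0.13 in cDC1 cells, 0.37 in monocytes, 0.426 in macrophages, 0.482 in cDC2 cells, 0.521 in keratinocytes and 0.538 in mural cells.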

How the results depend on the processing

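Of 19 summary results, 118 recomputed values stayed close to the reported value, 51 moved and 2 reversed. Of 48 ratios of single genes in single classes the counts were 404, 52 and 15. A ratio within the reported interval counted as close, and one across 1 counted as reversed only if that interval excluded 1. Values not counted as reversed can therefore also cross 1. Cxcr3 in CD8 T cells, for example, was 0.982 as reported and 1.01 without the highest cell of each library. Counts of listed genes were close if within 1.5-fold of the reported count. Added settings, chosen after seeing the data, were leaving out the cell with most UMIs, the ratio of shares of cells with a UMI, and leaving out shared barcodes. Ratios over all kept cells came to 0.816 for Ifng without the highest cell. As ratios of shares they were 1.21 for Ifng, 1.16 for Ifngr1, 0.982 for Cxcl9 and 0.764 for Cxcl10. Divided by the median gene ratio they were 1.7 for Il12rb2, 1.37 for Ifngr1, 1.02 for Ifngr2, 1.38 for Cxcl9 and 0.789 for Cxcl10, and Cxcl10 was 0.699 with at most 10% mitochondrial UMIs. Ratios of shares reversed Cxcl10 in Langerhans cells (0.908), fibroblasts (0.862), mast cells (1.13) and mural cells (1.04) and Ifngr1 in conventional CD4 T cells (0.996). Separate clustering reversed Ifngr2 (1.28) and Cxcl10 (1.06) in cDC2 cells, and a minimum of 500 genes Cxcl9 there (0.78). A resolution of 2.0 reversed Il12rb2 (0.886) and Ifngr1 (0.765) in conventional CD4 T cells. At most 10% mitochondrial UMIs reversed Cxcl10 in melanocytes (1) and in the Ear2 and Retnla cells (1.14), where Ifngr1 was 0.894, and 0.979 with members kept in the clustering and 0.931 with free RNA subtracted. The cause was not tested.

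Interferon gamma-inducible genes lower in macrophages numbered 5 with a minimum of 500 genes, at resolution 0.5, with separate clustering, with listed genes kept and after division by the median, 6 at 10% mitochondrial UMIs, 0 at 100 UMIs and 1 at 2-fold. Those lower in monocytes numbered 5 at 100 UMIs and 3 at 2-fold. Those lower in CD8 T cells numbered 4 with doublets kept, 1 at 100 UMIs and 0 at 2-fold, and in NK cells 4 at 10% mitochondrial UMIs and at resolution 0.5, 0 at 100 UMIs and 1 at 2-fold. Those higher in cDC2 cells numbered 9 with separate clustering and 1 with 500 genes, 100 UMIs, 2-fold or division by the median. The lower count there, 0 as reported, was 5 with separate clustering, 3 at 10% mitochondrial UMIs and with doublets kept, 2 with listed genes kept and 1 with 500 genes. In Langerhans cells the higher genes numbered 3 at resolution 2.0 and at 2-fold and 1 at 100 UMIs. Type I-type genes lower numbered 5 in macrophages at 2-fold and 2 in monocytes at 100 UMIs. In CD8 T cells they numbered 1 at 2-fold and 0 at resolution 2.0, at 100 UMIs and with doublets kept, where 2 genes were measured in place of 9. In Langerhans cells they numbered 2 at resolution 2.0 and 4 at 100 UMIs, with separate clustering and with listed genes kept. In cDC2 cells they numbered 3 at resolution 2.0 and with 500 genes, and 2 at 2-fold, 100 UMIs, 10% mitochondrial UMIs, with doublets kept and with listed genes kept. The higher count there, 0 as reported, was 4 with doublets kept, 3 with 500 genes and 1 at 10% mitochondrial UMIs and with separate clustering. Fewer genes were tested at 100 UMIs. No paired analysis was possible because each group has 1 library, so the groups share fewer than 2 replicate numbers.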

Other observations

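The control cell with 187 Ifng UMIs had 5875 UMIs in all. It also held 56 UMIs of Il13, a type 2 cytokine, 11 of Csf2, 6 of Gata3, 4 of Il12rb2 and 3 of Cd4, and 0 of Cd8a. A small unnamed lymphocyte cluster, L2, whose leading genes were the heat-shock gene Hspa1a and the MHC class II genes H2-Ab1 and H2-Eb1, had 16 Ifng UMIs in 14 control cells and 7 in 29 RHS cells, and 2 of the control cells held them.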
